A study of Mus musculus with 12 samples.

Results

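This is an account of 10 genes of efferocytosis and of the lipid-associated macrophage state, *Mertk*, *Axl*, *Gas6*, *Mfge8*, *Trem2*, *Gpnmb*, *Fabp5*, *Cd9*, *Apoe*, and *Abca1*, in mouse hearts after acute myocardial infarction (AMI). They were chosen by symbol from the 53801 genes of the count and TPM matrices. All 10 passed the filter on low counts that left 15306 genes for testing. RNA from whole hearts of male C57BL/6N mice, with no genetic change stated for these libraries, was sequenced in 3 groups of 4 hearts, with 1 library for each heart. One group had sham surgery, and the others were taken 1 day and 7 days after AMI. The AMI was a permanent ligation of the left anterior descending coronary artery with a suture. The study's methods give an age of 10 to 14 weeks at surgery. The day on which sham hearts were taken is not given in the sources used here. A whole heart holds infarct, border, and remote tissue together.

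Efferocytosis is the uptake of dying cells by phagocytes, and after an infarct it clears dead cardiomyocytes and spent neutrophils. A dying cell exposes phosphatidylserine, bridging proteins such as Gas6, protein S, and Mfge8 bind to it, and receptors on the phagocyte bind the bridge. The TAM receptor tyrosine kinases Tyro3, Axl, and Mertk bind Gas6 and protein S, whereas Mfge8 binds integrins. A phagocyte that has taken up a cell has to handle its lipids, and macrophages loaded with lipid express Trem2, Gpnmb, Fabp5, and Cd9. Excess cholesterol leaves the cell through Abca1 and Abcg1 to carriers such as apolipoprotein E.

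Libraries held between 23204551 and 32166517 counts, and a count of 3, taken as the floor of a library, was between 0.0933 and 0.129 CPM. This floor covers counting error only, and every value of the 10 genes in every heart was above it. CPM values are counts scaled to one library total after TMM normalization, and TPM values also allow for transcript length, so levels of different genes are compared in TPM. Sham hearts had TMM factors of 0.781 to 0.917, day 1 hearts 1.01 to 1.06, and day 7 hearts 1.10 to 1.17, so a fold change in TPM was larger than the same change in CPM. On log2(TPM + 1) with limma the median gene was higher by 0.27 on day 1 against sham, by 0.19 on day 7 against day 1, and by 0.47 on day 7 against sham. The same medians in the edgeR fit were -0.01, 0.02, and 0.03. The heart tissue was as labelled, since the cardiomyocyte list (8 genes such as *Myh6* and *Tnnt2*) summed to between 40492 and 86538 CPM in every heart. A list of 10 macrophage genes, which holds none of these 10 genes, summed to between 227 and 324 CPM in sham hearts, between 465 and 699 CPM on day 1, and between 676 and 1035 CPM on day 7. None of the macrophage genes was at 0 in every heart. Sham hearts 1 and 2 stood apart from sham hearts 3 and 4. Their neutrophil list averaged 0.77 and 1.75 log2 CPM, against -1.50 and -1.85, their erythroid list 6.72 and 8.76, against 5.37 and 5.55, and their macrophage list 3.91 and 3.90, against 3.496 and 3.298. In bulk RNA, fewer cells of a type and less RNA per cell cannot be told apart.

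The first question was whether the 10 genes differed between the sham group and the hearts at both times after AMI. A gene was called a differentially expressed gene (DEG) when its fold change (FC) was at least 2 and its false discovery rate (FDR) was below 0.05, by edgeR's quasi-likelihood test with Benjamini-Hochberg adjustment over the 15306 genes. On day 1 against sham, *Trem2* and *Gpnmb* rose, so 2 of the 10 genes were DEGs that were higher, whereas 7.79% of all genes tested were higher DEGs. None was lower, whereas 2.98% of all genes were. Between day 1 and day 7, *Gpnmb*, *Trem2*, *Apoe*, and *Fabp5* rose, which is 4 of 10 genes against 8.55% of all genes, and none fell, against 2.69%. On day 7 against sham, *Gpnmb*, *Trem2*, *Apoe*, *Cd9*, and *Fabp5* rose, which is 5 of 10 genes against 15.3% of all genes, and none fell, against 5.88%. With the FDR alone and no FC minimum, 4 were higher and 1, *Abca1*, was lower on day 1 against sham, against 22.0% and 19.9% of all genes. By this rule 8 were higher and 0 lower on day 7 against day 1, against 24.2% and 22.8% of all genes, and 9 were higher and 0 lower on day 7 against sham, against 30.9% and 28.4%. In CPM, 2 of the 10 genes (*Trem2* and *Gpnmb*) had day 1 hearts all above sham hearts, against 19.6% of all genes, and none had them all below, against 17.1%. Day 7 hearts were all above day 1 hearts for 8 genes, against 23.5%, and all below for none, against 20.9%. Against sham hearts these counts were 9, against 28.3%, and 0, against 24.7%. The comparisons share groups, so their counts are not independent. The median log2 FC of the 10 genes was 0.32, 0.80, and 0.94 for these comparisons in turn. With sham hearts 3 and 4 as the only sham hearts, 2, 4, and 4 genes were higher DEGs, against 8.28%, 9.13%, and 15.7% of all genes, with *Fabp5* on day 7 against sham at a log2 FC of 0.91. By limma on log2(TPM + 1), 1, 5, and 8 of the 10 genes were higher DEGs, against 6.98%, 6.45%, and 19.4% of the 13716 genes tested on that scale. With a pseudocount of 0.1 these were 2, 5, and 8, against 11.5%, 10.3%, and 26.1%.

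**Figure D1:**
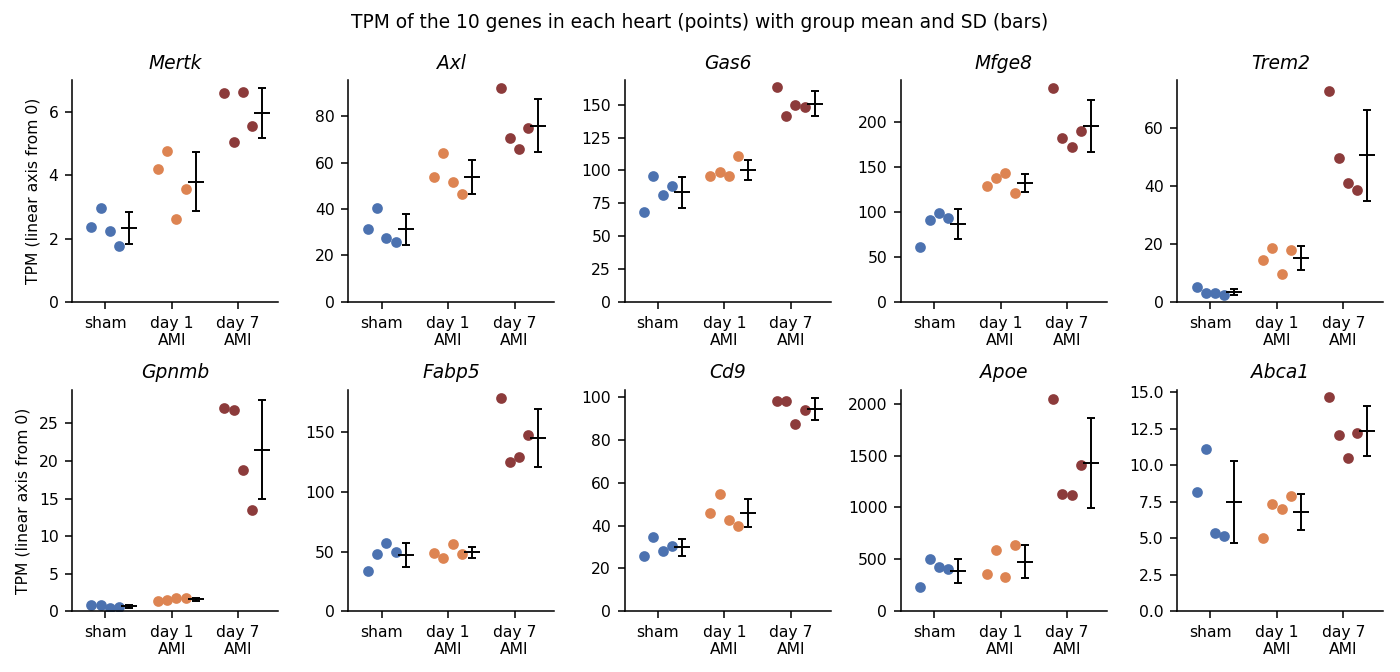
TPM (linear axis from 0) of the 10 genes in each of the 12 hearts, with one panel per gene, one point per heart in replicate order, and a bar for the group mean and SD (n = 4). *Gpnmb* stayed between 0.38 and 1.80 TPM in sham and day 1 hearts and reached 13.5 to 27.0 TPM on day 7, whereas *Abca1* in sham hearts overlapped both AMI groups.

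None of the 4 receptors and bridging proteins of efferocytosis reached a FC of 2 in any comparison of the edgeR fit. On the TPM scale, *Axl* (1.26), *Mfge8* (1.18), and *Mertk* (1.07) were higher DEGs on day 7 against sham by limma on log2(TPM + 1), where the median gene was at 0.47, and *Gas6* was at 0.86. The same 3 genes were DEGs with a pseudocount of 0.1 and in edgeR with library totals in place of TMM factors, when 26.1% and 23.7% of all genes were higher DEGs. None of the 4 was a DEG in the other comparisons of these 3 settings. *Axl* (ENSMUSG00000002602, chr7:25757273-25788705, GRCm38, minus strand) encodes the TAM receptor with the highest level in these hearts. Its CPM was 114, 126, 89.4, and 90.6 in sham hearts, 142, 164, 137, and 115 on day 1, and 201, 150, 151, and 162 on day 7. Day 7 hearts were all above sham hearts, whereas the day 1 range overlapped both other groups in CPM. The log2 FC was 0.41 ± 0.138 (SE) on day 1 against sham (adjusted p = 0.0289, edgeR) and 0.66 ± 0.138 on day 7 against sham (adjusted p = 0.0009), below a FC of 2. The step from day 1 to day 7 was 0.25 ± 0.137 and did not pass the test (adjusted p = 0.147).

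*Mertk* (ENSMUSG00000014361, chr2:128698956-128802894, plus strand) encodes the TAM receptor that resident macrophages use to engulf dying cells. Sham hearts had 9.02, 10.02, 7.95, and 6.74 CPM, day 1 hearts 12.0, 13.4, 8.01, and 9.36, and day 7 hearts 15.9, 12.9, 16.5, and 13.1. Day 1 hearts overlapped sham hearts and day 7 hearts, and all day 7 hearts were above all sham hearts. Its log2 FC was 0.34 ± 0.169 on day 1 against sham (adjusted p = 0.121, edgeR), 0.45 ± 0.164 from day 1 to day 7 (adjusted p = 0.0356), and 0.79 ± 0.168 on day 7 against sham (adjusted p = 0.000996).

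Of the summed TPM of *Axl*, *Mertk*, and *Tyro3*, *Axl* made up 90.8% ± 0.338 (SD, n = 4) in sham hearts, 90.4% ± 1.53 on day 1, and 88.2% ± 1.02 on day 7. The sum itself ran from 28.1 to 44.5 TPM in sham hearts and from 76.1 to 104 TPM on day 7. *Mertk* made up 6.78%, 6.34%, and 7.00%, and *Tyro3* 2.46%, 3.26%, and 4.81%. Within each heart, the difference between the log2 CPM of the receptors was taken and compared between groups by an exact permutation test, two-sided. Such tests were run on 9 pairs of genes, 27 in all. The smallest p that 4 against 4 hearts allow is 0.0286, which is 0.0482 after Benjamini-Hochberg adjustment over these tests. *Axl* fell against *Tyro3* by 0.53 on day 1 against sham, by 0.56 from day 1 to day 7, and by 1.09 on day 7 against sham, each with the smallest exact p. The day 1 difference against sham was not called on the TPM scale, with -0.32 on log2(TPM + 0.1) (exact p = 0.114) and 0.11 on log2(TPM + 1) (exact p = 0.429). On the latter scale the other 2 differences were -0.32 and -0.21, each at an exact p of 0.0571. *Axl* and *Mertk* differed in their change by 0.09, -0.22, and -0.13 in these comparisons, and the exact p-values, from 0.371 to 0.743, did not pass the test. Of all pairs among the 10 genes, *Axl* and *Mertk* also had the most alike profiles over the 12 hearts, with a root-mean-square difference of 0.195 in log2 CPM centred on the sham mean.

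*Gas6* (ENSMUSG00000031451, chr8:13465374-13494490, minus strand) encodes the ligand of the TAM receptors. It had 157, 188, 165, and 190 CPM in sham hearts, 165, 167, 165, and 180 on day 1, and 233, 205, 223, and 205 on day 7. Sham and day 1 hearts overlapped, and day 7 hearts were above both. In the edgeR fit the log2 FC was -0.05 ± 0.0824 on day 1 against sham (adjusted p = 0.657, edgeR), 0.36 ± 0.0824 from day 1 to day 7 (adjusted p = 0.00291), and 0.31 ± 0.0824 on day 7 against sham (adjusted p = 0.00532). Of its exonic bases, 1.33% overlap the antisense gene *Tmem255b*, and the strand counted is not given in the sources used here. *Pros1*, which encodes protein S, had 25.8 CPM on average in sham hearts, 37.9 on day 1, and 43.4 on day 7. *Gas6* fell against *Pros1* by 0.60 on day 1 and by 0.44 on day 7, both against sham and both with the smallest exact p of 0.0286. From day 1 to day 7 the difference was 0.16 (exact p = 0.229). *Gas6* made up 88.9% ± 1.38 of the summed TPM of both ligands in sham hearts, 84.2% ± 2.30 on day 1, and 85.6% ± 1.03 on day 7.

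*Mfge8* (ENSMUSG00000030605, chr7:79133768-79149060, minus strand) encodes the bridge to integrins. Sham hearts had 102, 133, 149, and 145 CPM, day 1 hearts 163, 173, 184, and 145, and day 7 hearts 251, 191, 189, and 187. The lowest day 1 heart lay within the sham range in CPM, and day 7 hearts were above all others. This gave a log2 FC of 0.33 ± 0.128 on day 1 against sham (adjusted p = 0.0514, edgeR), 0.30 ± 0.128 from day 1 to day 7 (adjusted p = 0.0664), and 0.63 ± 0.128 on day 7 against sham (adjusted p = 0.000705). *Gas6* minus *Mfge8* was lower by 0.39 on day 1 and by 0.33 on day 7, both against sham, with an exact p of 0.0571 for each.

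**Figure D2:**
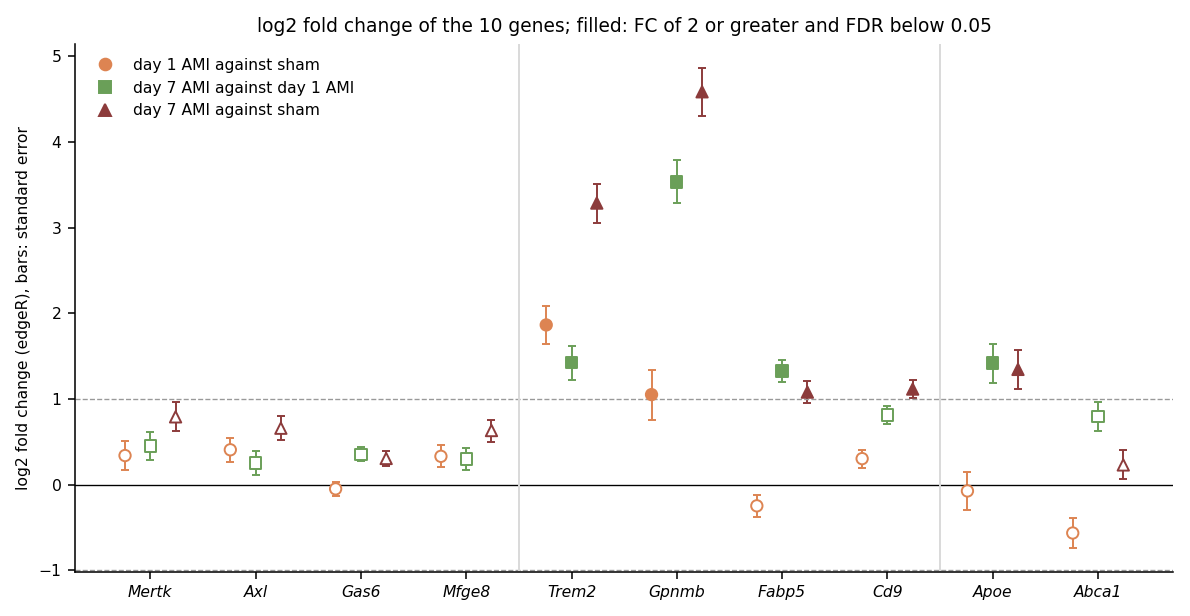
Log2 FC (vertical axis, with standard errors as bars) of the 10 genes in 3 comparisons, from the edgeR fit of 12 libraries. Filled points are DEGs, dashed lines mark a FC of 2, and grey lines divide the receptors and ligands, the lipid-associated macrophage genes, and the efflux genes. *Gpnmb* and *Trem2* reached 4.59 and 3.29 on day 7 against sham, whereas the receptors and ligands stayed between 0.31 and 0.79.

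The largest changes were those of *Gpnmb* and *Trem2*, both genes of lipid-associated macrophages. *Trem2* (ENSMUSG00000023992, chr17:48346401-48354147, plus strand) encodes a receptor for lipids and lipoproteins on macrophages and microglia, which signals through the adaptor Tyrobp. Sham hearts had 3.86, 2.71, 2.28, and 2.01 CPM, day 1 hearts 8.60, 11.8, 7.49, and 11.4, and day 7 hearts 34.8, 27.4, 22.1, and 21.5. The groups did not overlap in any comparison, and each step was upward. The log2 FC was 1.86 ± 0.226 on day 1 against sham (adjusted p = 5.32e-05, edgeR), 1.42 ± 0.199 from day 1 to day 7 (adjusted p = 6.52e-05), and 3.29 ± 0.228 on day 7 against sham (adjusted p = 7.85e-08). In TPM the mean was 3.40 ± 1.11 (SD, n = 4) in sham hearts, 15.1 ± 4.199 on day 1, and 50.5 ± 15.6 on day 7. *Trem2* minus its adaptor *Tyrobp* changed by 0.06 on day 1 against sham, which is within the spread between hearts (exact p = 0.857). *Trem2* rose from day 1 to day 7 against *Tyrobp* by 1.24, with the smallest exact p of 0.0286. *Tyrobp* itself averaged 7.72 CPM in sham hearts, 26.4 on day 1, and 29.97 on day 7.

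*Gpnmb* (ENSMUSG00000029816, chr6:49036546-49070929, plus strand) encodes a glycoprotein of lysosomes and the cell surface that is high in lipid-laden macrophages. It was below 1 TPM in every sham heart. Its CPM was 2.30, 2.42, 1.07, and 1.39 in sham hearts, 3.29, 3.82, 3.53, and 4.29 on day 1, and 53.2, 56.7, 37.9, and 25.9 on day 7. The groups did not overlap, and the gap between day 1 and day 7 was far wider than that between sham and day 1. Its log2 FC was 1.05 ± 0.291 on day 1 against sham (adjusted p = 0.0102, edgeR), 3.54 ± 0.251 from day 1 to day 7 (adjusted p = 2.07e-07), and 4.59 ± 0.280 on day 7 against sham (adjusted p = 2.93e-08). The day 1 call lay close to a FC of 2. Without sham heart 3 it was 0.87, without sham heart 4 it was 0.95, and without day 1 heart 4 it was 0.98, each with an adjusted p below the FDR.

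*Gpnmb* and *Trem2* followed different courses. *Gpnmb* minus *Trem2* fell by 0.75 log2 units on day 1 against sham, rose by 2.04 from day 1 to day 7, and was 1.29 higher on day 7 than in sham hearts, each with the smallest exact p of 0.0286. On log2(TPM + 0.1) the day 1 difference was -0.89 (exact p = 0.0857). On log2(TPM + 1), where the pseudocount was above every sham value of *Gpnmb*, the difference of day 7 against sham was 0.19 (exact p = 0.343).

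The promoters of both genes were read from RefSeq (GRCm38.p6), since these 2 genes moved most and by different steps. The windows searched were 250 bases before to 30 bases after the start site, on both strands, and 9 of the 10 genes had one. The motifs were AP-1 (TGANTCA), the E-box CACGTG, the LXR direct repeat (2 copies of GGTNA with 5 bases between them), PU.1 (GAGGAAG), the TATA box (TATAAA), and the GC box (GGGCGG). Of 32817 promoter windows, 7.47% held AP-1, 6.79% the E-box, 0.683% the LXR repeat, 12.2% PU.1, 13.1% the TATA box, and 34.7% the GC box. Capitals mark matches to any of these motifs. The *Trem2* sequence is chr17:48346151-48346400 on the plus strand, which ends just before the start site. The *Gpnmb* sequence is chr6:49036268-49036545 on the plus strand, which runs to the start site of the GENCODE gene, 28 bases past that of RefSeq.
Trem2: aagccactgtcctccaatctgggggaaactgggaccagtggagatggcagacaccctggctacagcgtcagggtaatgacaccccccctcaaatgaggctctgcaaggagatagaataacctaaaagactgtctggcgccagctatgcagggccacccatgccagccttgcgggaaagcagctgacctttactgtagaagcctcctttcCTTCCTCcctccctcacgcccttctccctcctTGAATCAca
Gpnmb: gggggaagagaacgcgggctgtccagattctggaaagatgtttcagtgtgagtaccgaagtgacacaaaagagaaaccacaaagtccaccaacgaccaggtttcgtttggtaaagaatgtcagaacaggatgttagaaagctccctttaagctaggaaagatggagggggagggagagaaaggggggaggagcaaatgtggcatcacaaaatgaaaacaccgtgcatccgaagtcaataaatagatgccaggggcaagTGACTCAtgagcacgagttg
*Trem2* held a PU.1 match whose first base lies 41 bases before the start site and an AP-1 match 9 bases before it, the PU.1 letters being on the reverse strand. *Gpnmb* held only an AP-1 match, 8 bases after the RefSeq start site and 20 bases before the GENCODE start site, and no match to the PU.1 letters. Neither window held the LXR repeat, the E-box, the TATA box, or the GC box. A match is a description of the letters, not of a bound site.

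*Fabp5* (ENSMUSG00000027533, chr3:10012548-10016607, plus strand) encodes a fatty acid-binding protein of macrophages, endothelium, and skin. Sham hearts had 26.3, 32.1, 39.5, and 35.7 CPM, day 1 hearts 28.1, 25.4, 32.5, and 26.6, and day 7 hearts 84.4, 61.8, 67.0, and 69.3. Sham and day 1 hearts overlapped, and every day 7 heart was above them. In the edgeR fit the log2 FC was -0.25 ± 0.129 on day 1 against sham (adjusted p = 0.138, edgeR), 1.33 ± 0.129 from day 1 to day 7 (adjusted p = 3.30e-06), and 1.08 ± 0.129 on day 7 against sham (adjusted p = 7.15e-06). Against sham, its FC on day 7 was just under 2 without sham heart 1 (0.98) or without day 7 heart 1 (0.98). *Fabp4*, the related protein of adipocytes and capillary endothelium, averaged 465 CPM in sham hearts, 277 on day 1, and 387 on day 7. *Fabp5* rose against *Fabp4* by 0.51, 0.84, and 1.35 in the 3 comparisons, each with the smallest exact p of 0.0286. *Fabp4* remained the higher gene of the pair, at 831 to 962 TPM on day 7 against 125 to 179 TPM for *Fabp5*, although the adipocyte marker list summed to at most 10.8 CPM in any heart.

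*Cd9* (ENSMUSG00000030342, chr6:125460266-125494791, minus strand) encodes a tetraspanin of the plasma membrane and of extracellular vesicles. It had 24.8, 28.7, 23.9, and 27.5 CPM in sham hearts, 32.9, 38.8, 30.9, and 27.0 on day 1, and 58.6, 60.1, 54.6, and 54.3 on day 7. One day 1 heart lay within the sham range, and day 7 hearts were above all others with little spread (CV 5.10%, the lowest of the 10 genes on day 7). This gave a log2 FC of 0.30 ± 0.104 on day 1 against sham (adjusted p = 0.0309, edgeR), 0.81 ± 0.103 from day 1 to day 7 (adjusted p = 2.99e-05), and 1.12 ± 0.105 on day 7 against sham (adjusted p = 9.25e-07). Of its exonic bases, 10.7% overlap the antisense gene *Gm26728*, and reads of both cannot be told apart if strand was not counted.

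The efflux genes moved in different ways. *Apoe* (ENSMUSG00000002985, chr7:19696109-19699188, minus strand) encodes the lipoprotein that takes up cholesterol from macrophages. It had 209, 351, 315, and 332 CPM in sham hearts, 214, 357, 211, and 366 on day 1, and 1054, 621, 647, and 748 on day 7. Sham and day 1 hearts covered the same range, and day 7 hearts were above both. The log2 FC was -0.07 ± 0.223 on day 1 against sham (adjusted p = 0.816, edgeR), 1.42 ± 0.227 from day 1 to day 7 (adjusted p = 0.00019), and 1.35 ± 0.226 on day 7 against sham (adjusted p = 0.000149). Per length it was the highest of the 10 genes in every group, with 392 ± 116 TPM (SD, n = 4) in sham hearts, 478 ± 159 on day 1, and 1427 ± 433 on day 7.

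*Abca1* (ENSMUSG00000015243, chr4:53030787-53159895, minus strand) encodes the transporter that passes cholesterol to apolipoproteins. Sham hearts had 82.5, 69.99, 48.0, and 45.5 CPM, day 1 hearts 35.9, 37.6, 43.9, and 48.9, and day 7 hearts 80.6, 76.5, 68.3, and 63.1. Day 7 hearts were all above day 1 hearts, and sham hearts overlapped both groups, with sham hearts 1 and 2 near the day 7 values and sham hearts 3 and 4 near the day 1 values. Its log2 FC was -0.56 ± 0.170 on day 1 against sham (adjusted p = 0.0164, edgeR), 0.79 ± 0.170 from day 1 to day 7 (adjusted p = 0.00168), and 0.23 ± 0.169 on day 7 against sham (adjusted p = 0.257). With sham hearts 3 and 4 alone the day 1 log2 FC against sham was -0.17 (adjusted p = 0.348) and that of day 7 was 0.62 (adjusted p = 0.00225), so both depended on which sham hearts were used. Without sham heart 1 these values were -0.39 (adjusted p = 0.0595) and 0.40 (adjusted p = 0.0415). The part of the neutrophil, erythroid, and macrophage lists of sham hearts 1 and 2 in these values was not tested.

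*Abca1* fell against *Abcg1*, the second sterol transporter of macrophages, by 1.22 on day 1 and by 1.46 on day 7, both against sham with the smallest exact p of 0.0286. *Abcg1* was itself a DEG that rose from day 1 to day 7 (log2 FC 1.04, adjusted p = 0.000693) and on day 7 against sham (1.68, adjusted p = 9.59e-06). *Apoe* minus *Abca1* was higher by 1.07 on day 7 against sham (exact p = 0.0286). On day 1 against sham the difference was 0.43 (exact p = 0.4), and from day 1 to day 7 it was 0.64 (exact p = 0.0857).
The promoters of this pair are shown because *Abca1* is a known target of LXR, the sterol receptor, and was the only one of the 9 genes with a match to the LXR repeat. The *Abca1* sequence is chr4:53159896-53160145 and the *Apoe* sequence chr7:19699189-19699438, the one upstream of the start site shared with GENCODE, both on the minus strand, from RefSeq (GRCm38.p6), with capitals as above.
Abca1: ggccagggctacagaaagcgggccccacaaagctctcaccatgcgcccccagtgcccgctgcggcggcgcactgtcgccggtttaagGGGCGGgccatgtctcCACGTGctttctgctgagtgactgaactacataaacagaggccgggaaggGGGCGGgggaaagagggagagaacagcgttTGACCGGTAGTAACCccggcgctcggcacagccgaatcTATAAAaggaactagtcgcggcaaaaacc
Apoe: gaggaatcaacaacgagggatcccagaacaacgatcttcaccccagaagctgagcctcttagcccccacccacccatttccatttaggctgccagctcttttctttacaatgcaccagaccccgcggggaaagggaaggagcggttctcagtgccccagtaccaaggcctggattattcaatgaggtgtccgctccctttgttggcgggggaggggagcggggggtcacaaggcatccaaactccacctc
The first base of the LXR repeat of *Abca1* lies 67 bases before the start site, between GC boxes at 163 and 97 bases and a TATA box at 29 bases, with the E-box at 147 bases. The *Apoe* window shown held none of the 6 motifs, and the window of another RefSeq start site of *Apoe* held TATA boxes. Of the other windows, those of *Mertk*, *Axl*, *Gas6*, *Mfge8*, and *Cd9* held GC boxes, and that of *Axl* held a PU.1 match.

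The second question was how the genes moved against the macrophage list in the same heart. This list averaged 3.65 ± 0.303 log2 CPM (SD, n = 4) in sham hearts, 4.98 ± 0.274 on day 1, and 5.28 ± 0.370 on day 7, and 6 of its 10 genes were higher DEGs on day 1, against 7.79% of all genes, and 9 on day 7, against 15.3%, both against sham. The log2 CPM of each gene minus this mean was compared by exact two-sided permutation tests, of which 30 were run. The smallest exact p of 0.0286 is 0.0451 after Benjamini-Hochberg adjustment over them, and 19 of the 30 tests reached it. *Trem2* was the one gene that rose against the list in all 3 comparisons, by 0.52, 1.12, and 1.63, each at that p. On TPM the first of these was 0.47 with a pseudocount of 0.1 (exact p = 0.0857) and 0.41 with a pseudocount of 1 (exact p = 0.0571). The list itself rose after AMI, so a gene that did not change, or rose less, fell against it. *Gas6*, for example, had a log2 FC of -0.05 on day 1 against sham in the edgeR fit. The share of all genes tested that fell against the list was not computed. The genes of the list did not move alike in the edgeR fit. On day 1 against sham, *Fcgr1* (log2 FC 2.22) and *C5ar1* (2.04) were among the 6 higher DEGs, whereas *Csf1r* (0.45) and *Cx3cr1* (0.42) were not DEGs. From day 1 to day 7, *Itgam* (-1.07) was a lower DEG and *Cx3cr1* (2.01) a higher DEG. The part of neutrophils in the day 1 rise of the list was not tested.

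*Gpnmb* differed from the list by -0.23 on day 1 against sham (exact p = 0.257). It then rose against the list by 3.15 from day 1 to day 7 and by 2.92 on day 7 against sham, both with the smallest exact p of 0.0286. In each of the 4 day 7 hearts it was above every sham and day 1 heart on this scale.

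*Apoe* and *Fabp5* fell against the list on day 1, by 1.43 and 1.57, and rose from day 1 to day 7 by 1.14 and 1.02, all with the smallest exact p of 0.0286. On day 7 against sham they differed from the list by -0.29 (exact p = 0.343) and -0.54 (exact p = 0.171). For *Apoe* on day 1, log2(TPM + 1) gave -1.17 (exact p = 0.0571). *Cd9* fell by 1.03 on day 1 against sham (exact p = 0.0286). Its later differences of 0.52 and -0.51 did not pass (exact p = 0.0857 and 0.114).

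The mean differences of the receptors, the ligands, and *Abca1* from the macrophage list were lower at both times than in sham hearts, as were those of *Apoe*, *Fabp5*, and *Cd9* given above. *Mertk*, *Axl*, *Gas6*, and *Abca1* fell on day 1 against sham by 1.00, 0.92, 1.37, and 1.86, and on day 7 against sham by 0.83, 0.97, 1.32, and 1.36, each with the smallest exact p of 0.0286. *Mfge8* had -0.99 in both comparisons, with an exact p of 0.0571 on day 1 and 0.0286 on day 7. None of *Mertk*, *Axl*, *Gas6*, *Mfge8*, and *Abca1* passed the test from day 1 to day 7, and their differences ran from -0.05 to 0.50.

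**Figure D3:**
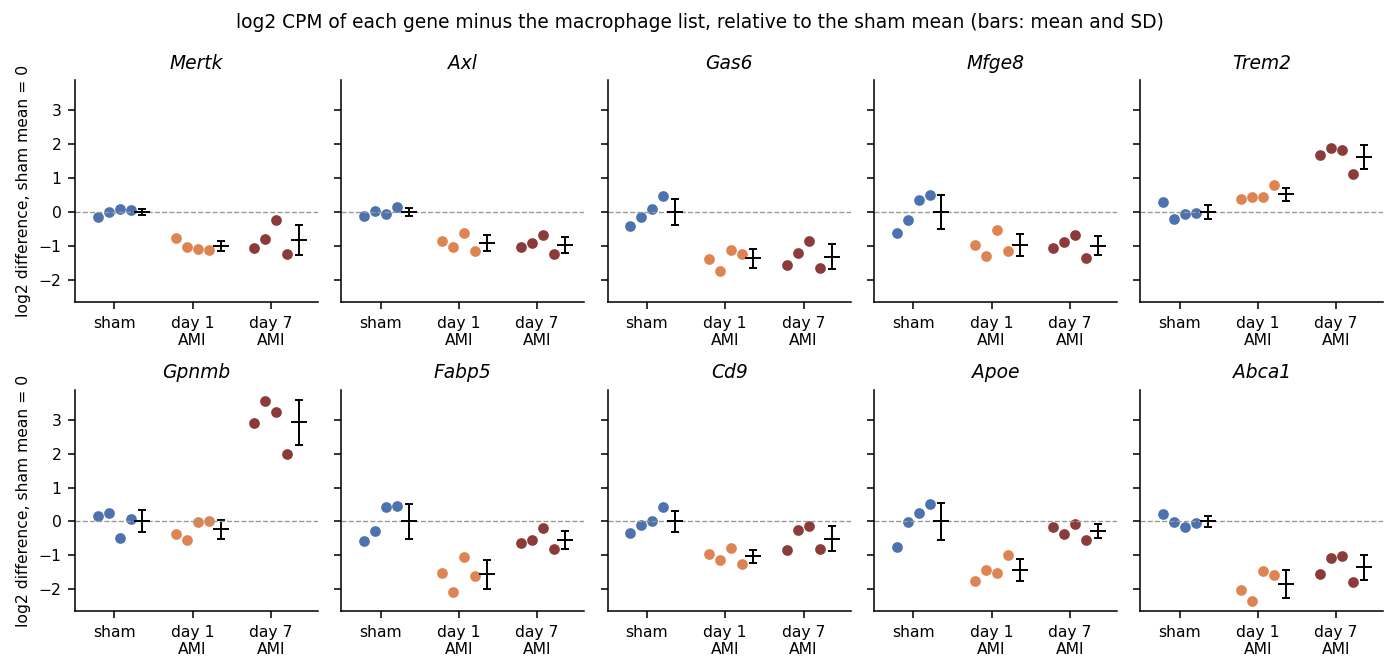
Log2 CPM of each gene minus the mean of the 10 macrophage genes in the same heart (vertical axis, log2 units, sham mean set to 0), with one point per heart and a bar for the group mean and SD (n = 4). *Trem2* and *Gpnmb* were above 0 in all 4 day 7 hearts, whereas *Mertk*, *Axl*, *Gas6*, *Mfge8*, *Fabp5*, *Cd9*, *Apoe*, and *Abca1* were below 0 in every heart of both AMI groups.

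Other cell types moved with these results too. The fibroblast list (8 genes) summed to between 916 and 1091 CPM in sham hearts, between 1156 and 1447 on day 1, and between 5469 and 12298 on day 7, and 6 of its 8 genes were higher DEGs from day 1 to day 7, against 8.55% of all genes. The endothelial list (7 genes) summed to between 889 and 1022 CPM, between 766 and 815, and between 1197 and 1331 in the same groups. The neutrophil list (8 genes) summed to between 2.77 and 58.4 CPM, between 50.1 and 183, and between 8.46 and 39.8. The cardiomyocyte list summed to between 71423 and 86538 CPM in sham hearts, between 45889 and 57417 on day 1, and between 40492 and 46670 on day 7. The T and NK cell list (6 genes) summed to between 1.48 and 2.14 CPM in sham hearts, between 1.83 and 5.74 on day 1, and between 5.02 and 10.3 on day 7. On day 7 against sham 5 of its 6 genes were higher DEGs, beside 15.3% of all genes. The smooth muscle and pericyte list (7 genes) summed to between 814 and 911 CPM in sham hearts, between 608 and 764 on day 1, and between 1128 and 1699 on day 7. Of its 7 genes 4 were higher DEGs on day 7 against sham, beside 15.3% of all genes. On day 1 the sum and the mean log2 CPM of this list moved in opposite directions. The mean was 5.51 ± 0.255 (SD, n = 4) in sham hearts, 6.02 ± 0.329 on day 1, and 6.62 ± 0.462 on day 7. Between sham and day 1, the abundant *Rgs5* went from 512 to 286 CPM and *Cnn1* from 2.43 to 10.4 CPM. In the erythroid list (5 genes) 3 genes were lower DEGs against sham at each time, beside 2.98% of all genes on day 1 and 5.88% on day 7. Its sums were between 491 and 4450 CPM in sham hearts, between 420 and 649 on day 1, and between 241 and 969 on day 7. In log2 CPM this list averaged 6.72 and 8.76 in sham hearts 1 and 2, and 5.37 and 5.55 in sham hearts 3 and 4. The mean was 5.58 ± 0.310 (SD, n = 4) on day 1 and 5.54 ± 0.804 on day 7, close to sham hearts 3 and 4. In the atrial list (4 genes) *Nppa* alone was a higher DEG against sham at each time, beside 7.79% and 15.3% of all genes. The other atrial genes did not pass, with *Sln* at -0.86, *Myl7* at -0.77, and *Myl4* at -0.27 on day 7 against sham. The median log2 FC of the atrial list was 0.26 on day 1 and -0.52 on day 7, both against sham. Of the adipocyte list 4 of 6 genes were tested and none was a DEG. Of the Schwann and glial list 4 of 5 were tested and 1, *Kcna1*, was lower on day 7 against sham, beside 5.88% of all genes. None of the genes of these lists was at 0 in every heart. The part of these cell types in the changes of the 10 genes was not tested.

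*Apoe*, *Mfge8*, and *Gas6* had the 3 highest levels per length in each group. In sham hearts the order ran from *Apoe* through *Mfge8* (86.2 ± 16.8 TPM, SD, n = 4), *Gas6* (83.3 ± 11.6), *Fabp5* (47.3 ± 9.73), *Axl* (31.2 ± 6.59), *Cd9* (29.8 ± 3.85), *Abca1* (7.47 ± 2.81), *Trem2*, and *Mertk* (2.34 ± 0.498) to *Gpnmb* (0.655 ± 0.236). *Mfge8* and *Gas6*, *Fabp5* and *Axl*, *Axl* and *Cd9*, and *Trem2* and *Mertk* had overlapping ranges, and the other neighbours did not. On day 1 *Axl* (53.8 ± 7.41 TPM) was above *Fabp5* (49.5 ± 4.78) with overlapping ranges, and *Trem2* was above *Abca1* (6.82 ± 1.26) without overlap. On day 7 *Mfge8* (195 ± 29.1 TPM) and *Gas6* (151 ± 9.45) still followed *Apoe*. *Trem2* and *Gpnmb* (21.5 ± 6.59) then lay above *Abca1* (12.4 ± 1.73) and *Mertk* (5.96 ± 0.791), which was now the lowest. On day 7 the ranges of *Gas6* and *Fabp5*, *Cd9* and *Axl*, *Axl* and *Trem2*, and *Gpnmb* and *Abca1* overlapped, and the other neighbours did not.

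Single hearts also differed within a group, and the ranks of the genes given here are by CPM. Day 7 heart 1 was the highest of its group for 7 of the 10 genes, all but *Mertk*, *Gpnmb*, and *Cd9*, and had the highest macrophage and fibroblast lists of the day 7 hearts (5.65 and 8.65 log2 CPM). Day 7 heart 4 was the lowest for 6 genes, *Trem2* and *Gpnmb* included, although its macrophage list, 5.53 log2 CPM, was the second highest of the group. In TPM day 7 heart 4 was the lowest for *Trem2* and *Gpnmb* only, and day 7 heart 1 was also the highest for *Gpnmb* and *Cd9*. In sham hearts, heart 2 was the highest for 5 genes and heart 1 the lowest for 4. These ranks within a group are a description.

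The other genes of the pathways were read from 3 lists. Of 28 other efferocytosis genes, 27 were tested. On day 1 against sham 1 rose, *Olr1*, which encodes a scavenger receptor (1.13 CPM, against 0.0483 CPM in sham hearts, which is under the floor), and 1 fell, *Stab2*, a phosphatidylserine receptor (log2 FC -1.76, adjusted p = 0.00406, at 0.247 against 0.833 CPM). Of all genes tested, 7.79% were higher DEGs and 2.98% lower DEGs in this comparison. From day 1 to day 7, 4 of the 27 rose, against 8.55% of all genes, and none fell. These were the engulfment receptor *Megf10* (3.13, adjusted p = 7.51e-07), its adaptor *Gulp1* (1.44, adjusted p = 2.67e-05), the phosphatidylserine-binding *Anxa1* (1.33, adjusted p = 2.43e-06), and *Elmo1* (1.19, adjusted p = 3.43e-06), which activates Rac in uptake. On day 7 against sham 12 rose, against 15.3% of all genes, and 1, *Stab2*, fell, against 5.88%. *Tyro3* (1.80, adjusted p = 1.00e-05) was among the 12, as were *Megf10* (2.86) and *Anxa1* (1.89). *Timd4*, a receptor of resident macrophages, had a mean of 2.399 CPM in sham hearts, 1.85 on day 1, and 1.60 on day 7 and did not pass in any comparison. The median log2 FC of the list was 0.49, 0.37, and 0.92 in the 3 comparisons, beside -0.01, 0.02, and 0.03 for all genes tested.

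Of 20 other genes of the lipid-associated macrophage programme, 19 were tested. Of these, 8 rose on day 1 against sham, whereas 7.79% of all genes were higher DEGs, and none fell. They were led by *Spp1*, which encodes osteopontin (log2 FC 7.94, adjusted p = 4.12e-06), the galectin *Lgals3* (3.46, adjusted p = 1.87e-06), the integrin *Itgax* (3.28, adjusted p = 6.05e-06), and *Tyrobp* (1.77, adjusted p = 8.52e-05). None passed in either direction from day 1 to day 7 by edgeR with the FC minimum. With the FDR alone 4 were higher and 5 lower, against 24.2% and 22.8% of all genes. *Spp1* averaged 116 CPM on day 1 and 80.4 on day 7 (log2 FC -0.53, adjusted p = 0.285), and *Lgals3* 38.2 and 45.2 CPM (0.24, adjusted p = 0.361). On day 7 against sham 8 rose, against 15.3% of all genes, with *Spp1*, *Lgals3*, *Itgax*, and *Tyrobp* again the largest at 7.41, 3.71, 3.45, and 1.95. The lipoprotein lipase gene *Lpl* fell (-1.26, adjusted p = 5.37e-06), at 6645 CPM in sham hearts against 2766, whereas 5.88% of all genes were lower DEGs. *Cd68* is in this list and in the macrophage list. The median log2 FC was 0.88, 0.24, and 0.79.

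Of 20 other genes of cholesterol efflux and LXR, 19 were tested. On day 1 against sham 4 of them rose, against 7.79% of all genes, and none fell. Among them was *Apoc2* (1.46 CPM, against 0.115 CPM in sham hearts, which is near the floor). Others were *Ch25h* (3.43, adjusted p = 7.75e-05), which makes 25-hydroxycholesterol, and *Soat1* (1.48, adjusted p = 4.26e-05), which esterifies cholesterol for storage. From day 1 to day 7 the phospholipid transfer protein gene *Pltp* (1.25, adjusted p = 2.26e-06) and *Abcg1* rose, which is 2 of 19 genes against 8.55% of all genes, and none fell. On day 7 against sham 5 rose, against 15.3%, and none fell, with *Soat1* at 2.44 (adjusted p = 9.47e-08) and *Ch25h* at 2.57 (adjusted p = 0.000197). *Abca1* was not a DEG in any comparison. The median log2 FC of this list was -0.01, 0.09, and 0.63.

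**Figure D4:**
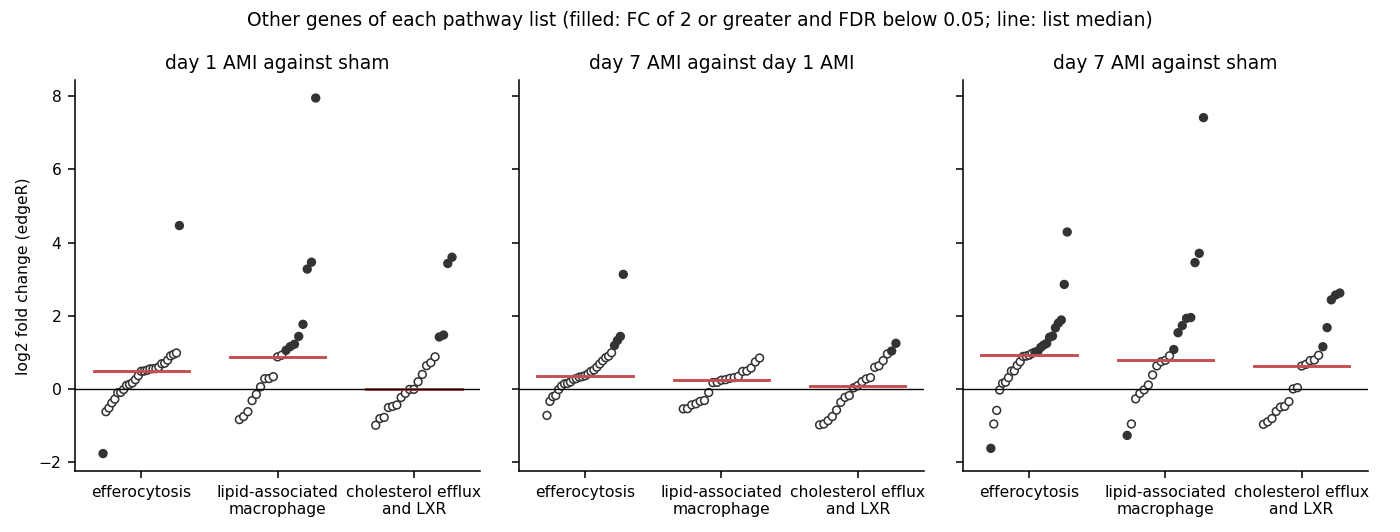
Log2 FC (vertical axis, edgeR) of the other tested genes of the 3 pathway lists, with 27, 19, and 19 genes, in 3 comparisons. Each point is a gene in order of its value, filled points are DEGs, and the red line is the list median. In the lipid-associated macrophage list 8 genes were DEGs on day 1 against sham, and none was from day 1 to day 7.

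The genes of the table most alike in profile were named for each of the 10 by the smallest root-mean-square difference over the 12 hearts between log2 CPM values centred on the sham mean. These hearts are the same that gave the values above, so the list is a description. Among the nearest to *Gpnmb* were *Prc1* (0.431), which acts in cell division, and *Pif1* (0.448), a DNA helicase. The nearest to *Trem2* were *Ly9* (0.272), *Brca1* (0.321), and *C3ar1* (0.327), of which *Ly9* and *C3ar1* encode leukocyte receptors. *Apoe* had *Eva1b* (0.220), *Tcf21* (0.277), a fibroblast marker, and *Epha1* (0.285). *Fabp5* had *Arsb* (0.167), *Pcdh12* (0.174), an endothelial cadherin, and *Plxdc2* (0.175). *Cd9* had *Tgfbr1* (0.112), *Smap1* (0.120), and *Atl3* (0.123), and *Abca1* had *Fam13c* (0.136), *Spc24* (0.146), and *Zfp704* (0.178). *Axl* had *Calm2* (0.109), *Dlg5* (0.118), and *Tmem184b* (0.124), and *Mertk* had *P3h2* (0.159), *Cmip* (0.160), and *Lrrc8c* (0.173). *Mfge8* had *Rabep2* (0.0890), *Slc25a1* (0.0980), and *Swap70* (0.103), and *Gas6* had *Rnf215* (0.0439), *Rab3d* (0.0817), and *Abl1* (0.0842). A gene that changed little has a small difference from many others. *Gpnmb* and *Trem2* were 0.903 apart and at least 1.56 from the other 8 genes.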

How the data were processed

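RNA from whole hearts was sequenced by the authors as 150-bp paired-end reads from random-hexamer cDNA. Per the labels' processing notes, CASAVA 1.8, STAR 2.4.0j, RSEM, and mm10 were used, and the methods name Cutadapt and Ensembl GRCm38.92. The authors deposited raw counts for each of 53801 genes, which are whole, unnormalized numbers. TPM, made by RSEM and deposited by the authors beside them, are relative to each library's transcripts. The tool and strand behind the counts are not given in the sources used here.

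Genes were followed by Ensembl identifier. Counts were fitted with edgeR 4.0.16 in R 4.3.3 (TMM, filterByExpr, quasi-likelihood test, one fit of 12 libraries), over 15306 genes. DEGs were called at a minimum FC of 2 with the FDR below 0.05. Log2 CPM used a prior count of 2. Standard errors were derived from the F statistic of the test. The alternatives were DESeq2 1.42.0, limma 3.58.1 on TPM (log2, adding 1 or 0.1), other size factors, filters and groups, a block for the replicate number, and each heart left out. Tested on simulated data of day 1 AMI against sham with 200 genes changed 4-fold, edgeR recovered 200, DESeq2 200, and limma 199, with 1, 1, and 0 false calls among 15306 genes.

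The 10 genes, the lists, the pairs, and the motifs were chosen with earlier results of these data known. All 10 genes and the partners of the 9 pairs are named, and of each pathway list at most 4 DEGs per comparison by the largest log2 FC. *Timd4*, *Lpl*, *Cd68*, *Nppa*, *Kcna1*, and the examples that repeat between comparisons were named after their values were seen. The same holds for the single genes named from the macrophage, smooth muscle and pericyte, and atrial lists. Nothing in the sources ties hearts of one replicate number together. The p-values of edgeR set group differences against the spread between these 12 hearts, and the exact tests used only the hearts of the groups compared. Coordinates are of GENCODE M21 (GRCm38), and promoters are of RefSeq (GRCm38.p6). Some single genes that the naming rules cover are not reported here.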

Additional observations from a re-analysis of the deposited data

Results flagged for a closer look

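Of the 10 genes in 3 groups, 30 groups of 4 hearts were tested for a heart far from the others by Dixon's ratio of gap to range, and 2 were past its critical value at the 95% level. Chance gives about 1 in 20 such groups. *Gas6* in day 1 heart 4 had 180 CPM (179.973), with the other day 1 hearts between 165 and 167 CPM. *Mfge8* in day 7 heart 1 had 251 CPM (251.35), with the other day 7 hearts between 187 and 191 CPM. Day 7 heart 1 was also the highest of its group for *Axl*, *Trem2*, *Fabp5*, *Apoe*, *Abca1*, and *Gas6*. Without it, the log2 FC of *Mfge8* was 0.19 from day 1 to day 7 and 0.52 on day 7 against sham.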

How the results depend on the processing

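The higher DEGs of day 1 against sham were 1 instead of 2 by limma on log2(TPM + 1), with and without the filter (6.98% and 3.62% of all genes), and 4 with no FC minimum, when 1 was also lower. From day 1 to day 7 they were 8 instead of 4 with no FC minimum. On day 7 against sham they were 8 instead of 5 by limma with a pseudocount of 1 or 0.1 and without the filter (19.4%, 26.1%, and 10.2% of all genes), 8 with library totals in place of TMM factors (23.7%, chosen after seeing the data), and 9 with no FC minimum. With one heart left out, the higher DEGs were between 1 and 2, 4 and 4, and 4 and 5 in these comparisons. *Gpnmb* on day 1 was lost without sham heart 3, sham heart 4, or day 1 heart 4. *Fabp5* on day 7 against sham was lost without sham heart 1 or day 7 heart 1, and with sham hearts 3 and 4 alone (0.91, chosen after seeing the data).

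On day 1 against sham, values near 0 changed sign with the scale. *Gas6* was 0.27 by limma with a pseudocount of 1, 0.28 with 0.1, and 0.22 with library totals. *Fabp5* was 0.085, 0.087, and 0.016, and *Apoe* 0.28, 0.28, and 0.19 in the same settings, with *Apoe* between -0.21 and 0.050 with one heart left out. Over all genes, the split of higher and lower DEGs moved with the scale, from 1192 and 456 to 957 and 64 by limma on log2(TPM + 1) on day 1, and from 2346 and 900 to 2666 and 113 on day 7, both against sham.

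Against the macrophage list from day 1 to day 7, *Mfge8* was 0.021 on log2(TPM + 1) and between -0.11 and 0.14 with one heart left out. *Mertk* was between -0.034 and 0.30, *Axl* between -0.15 and 0.048, and *Gas6* between -0.10 and 0.16. *Axl* minus *Mertk* on day 7 against sham was 0.20 on log2(TPM + 1) and on day 1 between -0.038 and 0.14 with one heart left out. *Axl* minus *Tyro3* on day 1 was 0.11 on log2(TPM + 1). *Trem2* minus *Tyrobp* on day 1 was -0.23 on log2(TPM + 1), -0.0043 on log2(TPM + 0.1) (chosen after seeing the data), and between -0.095 and 0.17 with one heart left out. *Gas6* minus *Mfge8* from day 1 to day 7 was between -0.0030 and 0.15. The cause of these changes of sign was not tested.

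Hearts with the same replicate number had correlations of their deviations between -0.24 and 0.23. These values did not show that the numbers paired the hearts, and they cannot exclude it. With the replicate block the higher DEGs were 2, 4, and 5, as without it, and the DEGs over all genes were 1180 and 441, 1304 and 392, and 2341 and 899. Of 690 log2 FCs of the 10 genes over the alternatives, 641 kept their direction and their side of the threshold, 26 newly passed, 8 no longer passed, and 15 changed sign. The alternative with no FC minimum kept the same log2 FCs and changed only the threshold. The settings with a heart left out include hearts of a group outside the comparison.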
